A study of Caenorhabditis elegans with 6 samples.

Results

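The sites described here are the NHR-25::GFP binding peaks in the centre of the X chromosome of Caenorhabditis elegans L2 larvae. They were chosen by position only: a peak of the combined list counted as a member when its midpoint lay between 6.14 and 12.48 Mb on X in WormBase WS220 coordinates. This gave 418 of the 1200 combined peaks on X and of the 6029 in the whole list, and each was then followed in the peak lists of 3 ChIP replicates. The first member began at 6201359 and the last ended at 12454638.

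The study was a chromatin immunoprecipitation with sequencing (ChIP-seq), which reads the DNA fragments that stay attached to a protein of interest. All samples were L2 hermaphrodites of strain OP33. They carried the unc119(ed3) allele and the transgene wgIs33, in which nhr-25 is fused to the tags TY1, EGFP and FLAG and which also holds unc119, and were grown at 20 °C on HB101 bacteria and fixed in 2% formaldehyde. The transgene was made by recombineering and brought in by bombardment of unc-119(ed3) worms without outcrossing, so the protein followed is the tagged copy of a single strain. There were 3 ChIP samples, collected with antibodies against GFP, and 3 inputs, which were not analysed here; the labels do not say whether replicates came from separate cultures. Whole larvae were used, so a site bound in few cells and a site bound weakly in many cannot be told apart.

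NHR-25 belongs to the NR5 group of nuclear receptors, whose Drosophila relative is FTZ-F1 and whose mammalian relatives are SF-1 and LRH-1. Receptors of this group are known to bind DNA as single molecules through a zinc-finger domain with an added carboxy-terminal stretch. In worms NHR-25 is known for its part in embryonic development, in the epidermis and its seam cells, and in molting. As background on the chromosome, worm autosomes recombine less in their centres than in their arms, a contrast that is weaker on X, and X of hermaphrodites is bound by the dosage compensation complex. Neither recombination nor that complex was measured here. No sequence or gene annotation of the WS220 build was used, so sites are given by position and no gene is named for them.

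A few terms recur below. The peak number is the number in the name that the authors gave a peak within its list. The authors' own value, a −log10 of a false discovery rate estimate, stops at a highest value of 3.96 in the combined list. The peak number was read here as a rank with 1 as the strongest, because that value falls in steps along it. Within a step the value can rise, as from 3.484 at number 4561 to 3.511 at number 4852. Strong and weak refer to this reading. Of the members, 318 (76.1%, exact 95% interval 71.7 to 80.1%) were at that ceiling, against 75.4% of all combined peaks, and the lowest member stood at 2.26. The value thus orders few of the members, and the peak number was used in its place. The full replicate lists held 30000, 29241 and 30000 peaks in replicates 1, 2 and 3; the top list of a replicate is its first 6029 peaks, as many as the combined list holds. A member was given, in each replicate, the lowest number among the peaks that overlapped it by at least 1 bp.

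The strongest sites of the X centre were strong in every replicate. Member number 11 of the combined list, at X:9465528-9466059, was number 11 in replicate 1, 10 in replicate 2 and 13 in replicate 3. It was the first-ranked peak of the centre in replicates 1 and 2. Number 16, at X:6296229-6296849, stood at 14, 34 and 22 in replicates 1, 2 and 3. Number 20, at X:11093810-11094399, stood at 15, 71 and 12. In replicate 3 this site, and not the one at 9465528, was the strongest of the centre. All 3 sites were over 500 bp wide as listed.

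The next 4 sites also stayed near the head of each list. Number 39, at X:8036012-8036779, was 29, 49 and 51 in replicates 1, 2 and 3. Number 44, at X:12362853-12363316, was 20, 51 and 94, and number 51, at X:11937238-11937729, was 46, 41 and 97. Both were lowest in replicate 3. Number 64, at X:6743649-6744308, was 39, 92 and 79. These 7 sites were the only members within the first 100 peaks of all 3 replicates, while 11 members were within the first 100 of the combined list.

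The other 4 of those 11 each fell beyond 100 in at least 1 replicate. Number 71, at X:8477338-8477810, was 93, 40 and 142 in replicates 1, 2 and 3, and number 96, at X:11605580-11606224, was 103, 108 and 87. Numbers 90 and 92, at X:6736367-6736857 and X:6737355-6738133, are neighbours whose midpoints lie 1132 bp apart. The first of them was 159, 66 and 107 in the replicates and the other 188, 91 and 61. Replicate 1 placed both lower than the other replicates did.

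Of the first 20 members, the remaining 9 ran from number 117 to number 195. They lay at X:7334275-7334673 (number 117), X:8231791-8232249 (120), X:7181570-7181932 (123), X:10765952-10766568 (144), X:8550043-8550453 (173), X:10377644-10377942 (178), X:11206982-11207250 (185), X:6739033-6739410 (189) and X:11031009-11031618 (195). Apart from the last, their replicate numbers lay between 77 and 373. The last stood at 124 in replicate 1 and 81 in replicate 3 but at 830 in replicate 2, the highest number of any of the 20 sites in any replicate. Over the 20 sites no replicate midpoint was more than 103.5 bp from the combined midpoint.

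Strong sites made up much the same share of the centre as of the whole list. Within the first 1000 combined peaks lay 75 members (17.9%, exact 95% interval 14.4 to 22.0%), against 16.6% by construction over all combined peaks. Within the first 500 lay 41. By their best overlapping peaks, 33 members were within the first 500 peaks of all 3 replicates and 65 within the first 1000 of all 3. These counts include weaker members that overlap a stronger one and share its replicate peaks. Number 1339, for example, has those of number 144 (186, 97 and 135 in replicates 1, 2 and 3). Matching shares over all combined peaks are not given here. The median member was number 2905.5 in the combined list, and the median of the best overlapping peak was 2688, 2621 and 2611 in replicates 1, 2 and 3. The last member was number 5949.

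The order of the members was similar in the replicates, with a wide scatter for single sites. Spearman's rho of the peak number was 0.726 between replicates 1 and 2 (407 members), 0.677 between 1 and 3 (406) and 0.690 between 2 and 3 (412), with a mean of 0.698 ± 0.0255 (SD over 3 pairs that share replicates). For the peaks of the X arms the mean was 0.707 ± 0.00876, and for those of the autosome middles 0.674 ± 0.00824. These are descriptions across peaks, which are not replicates, and members that overlap one another share replicate peaks. The largest replicate number of a member was a median of 2.36 times its smallest. Of the 404 members with a peak in every full list, 145 (35.9%) stayed within 2-fold and 48 differed by more than 5-fold. Matching counts over all combined peaks are not given here.

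**Figure D1:**
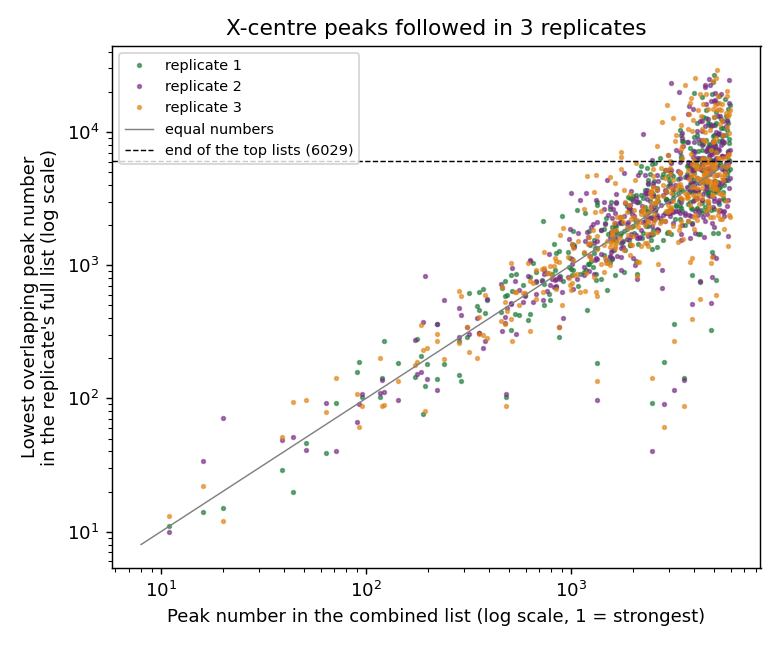
Peak number of each X-centre peak in the combined list (x axis, log scale) against the lowest number among the peaks that overlap it in the full list of replicates 1, 2 and 3 (y axis, log scale). Points follow the line of equal numbers up to about the first 1000 peaks and spread widely beyond it, up to 26774, 24866 and 29362 in the replicates; some points far below the line belong to members that share a replicate peak with a stronger member.

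The members with the most uneven replicate numbers were picked among those at or before the median number, and they did not single out 1 library. The site at X:9401884-9402323, number 2769 in the combined list, was 4602 in replicate 1, 920 in replicate 2 and 11803 in replicate 3, a range of 12.8-fold. The site at X:11031009-11031618, described above, spanned 10.2-fold, with its lowest place in replicate 2. The site at X:9527850-9528289 (number 1203) was 457, 1773 and 4641. The site at X:9552454-9552671 (1748) was 1733, 926 and 6546. Replicate 3 was the lowest in 3 of these 5 sites and replicate 2 in the other 2, the last of which, at X:6280853-6281454 (1496), was 656, 4388 and 1521.

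Most members overlapped a peak in all full lists. In the full lists 404 members (96.7%) overlapped a peak of every replicate, against 96% of all combined peaks, 13 were found in 2 replicates, 1 in a single replicate and 0 in none. In the shorter top lists 251 members (60.0%, exact 95% interval 55.2 to 64.8%) were found in all 3, against 56.9% of all combined peaks. Another 93 members were in 2 top lists, 68 in 1 and 6 in none. Replicates 1, 2 and 3 contained 330, 334 and 343 of the members in their top lists. The full lists were dense, with 256, 276 and 250 peaks per Mb in the centre in replicates 1, 2 and 3. They also reached low values of the authors, and 1 bp of overlap was enough. An overlap with a full list therefore need not mean a reproduced site. Since the combined list comes from the same ChIP libraries, these shares are descriptions and were not tested.

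How many members were shared followed their place in the combined list. All 75 members within the first 1000 peaks were in every top list (100%, exact 95% interval 95.2 to 100%), as were 74 of the 76 numbered 1001 to 2000 (97.4%) and 57 of the 65 numbered 2001 to 3000 (87.7%). The share was 42.2% of 64 members at 3001 to 4000, 16.7% of 78 at 4001 to 5000 and 8.33% of 60 at 5001 to 6029. Such a fall is partly built in, since the lists come from the same libraries and the top lists end at 6029. Shares over all combined peaks are not given by group, so the fall cannot be called particular to the centre. In the last group, numbers 5089, 5319, 5514 and 5588 were counted through replicate peaks shared with numbers 1317, 2578, 3149 and 3836. Members at 4001 to 5000 were also counted in this way, such as number 4238 with the replicate peaks of number 673. These shares therefore overstate how many weak members were found on their own. In the full lists the share was still 90.0% in the last of these groups. The 6 members in no top list began at number 4990, and each had a peak in every full list. The earliest of them, at X:10639167-10639606, was 9559, 8210 and 8523 in replicates 1, 2 and 3.

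**Figure D2:**
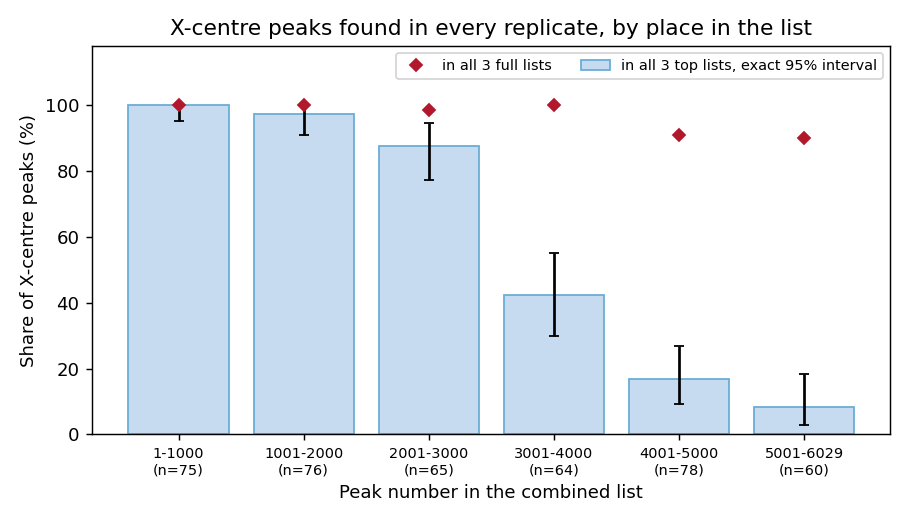
Share of the X-centre peaks (y axis, %) that overlap a peak of all 3 top lists (bars, with exact 95% intervals) or of all 3 full lists (diamonds), by peak number in the combined list (x axis, n members in each group). The bars fall from 100% to 8.33% while the diamonds stay at or above 90.0%.

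Of the 14 members that lacked a peak in some full list, 9 lacked one in replicate 1, 3 in replicate 2 and 3 in replicate 3. The strongest was number 2787 at X:10677431-10677870, without a peak in replicate 1. A single member, number 5104 at X:9551316-9551470, was found in replicate 3 only. The peak that it overlapped there was number 598, which also overlapped the stronger member number 382 at X:9551032-9551397.

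Midpoints agreed more closely for strong sites than for weak ones. Over the 75 members within the first 1000 peaks, the median distance between the combined midpoint and that of the best overlapping peak was 16.5, 20.0 and 20.5 bp in replicates 1, 2 and 3. For the 60 members from number 5001 on it was 42.0, 50.0 and 62.0 bp. The listed width differed with the rank as well, but not in a single direction. Its median was 326 bp within the first 1000, 249 bp at 1001 to 2000 and 440 bp in every later group. Exactly 440 bp was the width of 277 members (66.3%), but of 0 of the 75 within the first 1000, of 28 of the 76 at 1001 to 2000 and of 194 of the 202 beyond 3000. Of the others, 110 were narrower, down to 110 bp, and 31 were wider, up to 911 bp. A width of 440 bp is so common among the weaker members that it does not measure the extent of binding there. Widths over all combined peaks are not given here.

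Few replicate peaks were strong everywhere and missing from the combined list in the X centre. In the top lists, 87 of 423 centre peaks of replicate 1 (20.6%) overlapped no combined peak, as did 107 of 448 in replicate 2 (23.9%) and 86 of 429 in replicate 3 (20.0%). Only 7 replicate 1 peaks among these also overlapped a top peak of replicates 2 and 3, and 0 were within the first 1000 of all 3. The 2 strongest, chosen after their values were seen, lay at X:9743416-9743845 and X:9893027-9893456. The first was number 1261, 2317 and 1936 in replicates 1, 2 and 3 and the other 2988, 2368 and 2434. Both were at the ceiling of all 3 replicates, and the nearest combined midpoints were 12.3 and 6.63 kb away. Matching shares over the whole replicate lists are not given here. The shares of top peaks without a combined peak therefore cannot be called particular to the centre.

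Along the centre the sites were unevenly spread, and the replicates drew the same outline. The centre was cut into 10 windows of 634 kb. They held between 25 and 55 combined peaks, with a mean of 41.8 ± 10.7 (SD over windows). The window from 6.14 to 6.774 Mb held 55 combined peaks and 56, 60 and 61 top peaks in replicates 1, 2 and 3. The window next to it, up to 7.408 Mb, held 27 and 29, 21 and 26. From 7.408 to 8.042 Mb there were again 55 combined peaks, with 55, 50 and 57 in the replicates.

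A second sparse stretch lay from 8.676 to 9.31 Mb. It held 25 combined peaks and 25, 24 and 27 top peaks, and the ranges of the replicates in both sparse windows lay below those of the other 8 windows. Of the 25 combined peaks here 1 was within the first 1000 (4%), against 14 of 55 (25.5%) in the leftmost window and 10 of 41 (24.4%) from 9.944 to 10.578 Mb. The next window, from 9.31 to 9.944 Mb, held 50 combined peaks and 49, 59 and 49 in the replicates. In the rightmost window there were 34 combined peaks and 32, 33 and 36 in the replicates. The windows were chosen with the counts of coarser bins known and were not tested against one another.

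**Figure D3:**
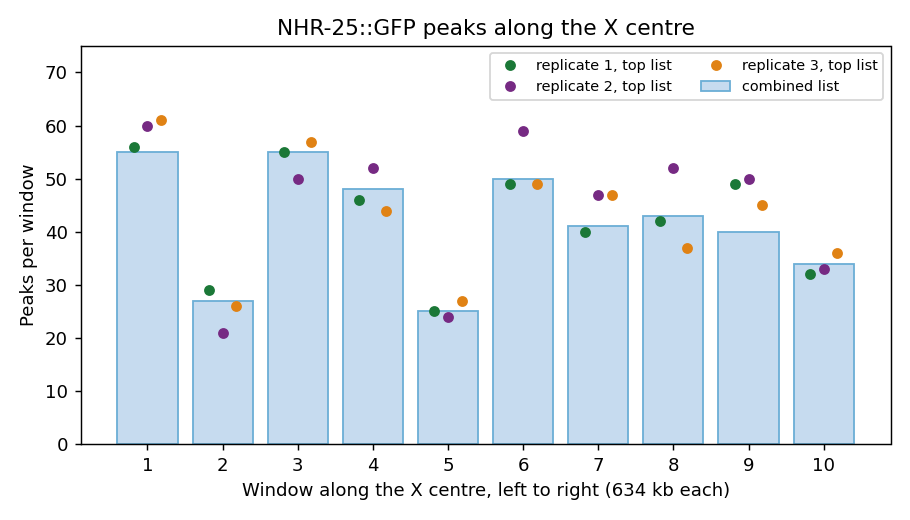
Number of peaks (y axis) in 10 windows of 634 kb along the X centre, from 6.14 Mb on the left to 12.48 Mb on the right; bars are the combined list and points the top lists of replicates 1, 2 and 3. Windows 2 and 5 stand at 27 and 25 combined peaks, below the other 8, in the combined list and in every replicate.

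The spaces between sites varied widely. Joined where they overlapped, the 418 peaks formed 391 regions that covered 2.50% of the centre (159 kb). Of these, 365 held 1 peak, 25 held 2 and 1 held 3. Spaces between neighbouring regions had a median of 4.26 kb, with quartiles of 1.42 and 17.4 kb, and 129 of 390 were under 2 kb while 9 were over 100 kb. Another region's midpoint lay within 2000 bp for 176 regions (45.0%, exact 95% interval 40.0 to 50.1%), against 42.2% of all combined regions. In the replicates' top lists the share was 41.8, 43.3 and 45.9% in replicates 1, 2 and 3 (mean 43.7 ± 2.06%, SD, n = 3).

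Chained by steps of at most 2000 bp, 215 regions stood alone, 44 chains held 2 regions, 11 held 3 and 10 held more. The longest chains held 9 regions each, at X:6735436-6744308 and X:9547204-9556886. Next came 2 chains of 6 regions, of which the one at X:10765952-10773003 included the site of number 144. Close neighbours were found at every strength. They were near 33 of the 75 members within the first 1000 peaks (44.0%) and 41 of the 76 at 1001 to 2000 (53.9%). The share was 44.6% at 2001 to 3000, 43.8% at 3001 to 4000 and 51.3% at 4001 to 5000. From 5001 on it was 23 of the 60 (38.3%). Matching shares by group over all combined peaks are not given here.

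The densest 30-kb window combined many sites with high ranks. It ran from X:6723049-6750597 and held 15 regions made of 19 peaks. Of these peaks, not regions, 8 were within the first 500 combined peaks and 15 were in all 3 top lists. The latter include numbers 2856, 878, 3190 and 5514, which share the replicate peaks of numbers 92, 311, 223 and 3149. Regions of this window numbered 12, 13 and 16 in the top lists of replicates 1, 2 and 3. The strongest sites inside were numbers 64, 90, 92 and 189, named above, and number 223 at X:6750093-6750597, which stood at 364, 116 and 272 in the replicates. Number 346 at X:6741500-6741907 was 494, 401 and 200. Midpoints of neighbouring regions were a median of 1044 bp apart, with 1 space of 10392 bp between its left end and the main body. The median replicate number of its members was 494, 401 and 345, with shared replicate peaks counted for each member. The medians of the windows below are taken in the same way.

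The other crowded windows were weaker. The one at X:12160244-12189129 held 13 regions, with 1 member within the first 500 peaks, number 477 at X:12180624-12180917, which stood at 761, 367 and 362. Its members had median replicate numbers of 2466, 2372 and 3663 in replicates 1, 2 and 3. The one at X:9527850-9556886 held 12 regions, led by number 198 at X:9548781-9549270 (182, 140 and 241) and number 382 at X:9551032-9551397 (440, 269 and 598). Its median replicate numbers were 1579, 1449 and 2318.5. In both of these windows replicate 3 gave the lowest places.

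**Figure D4:**
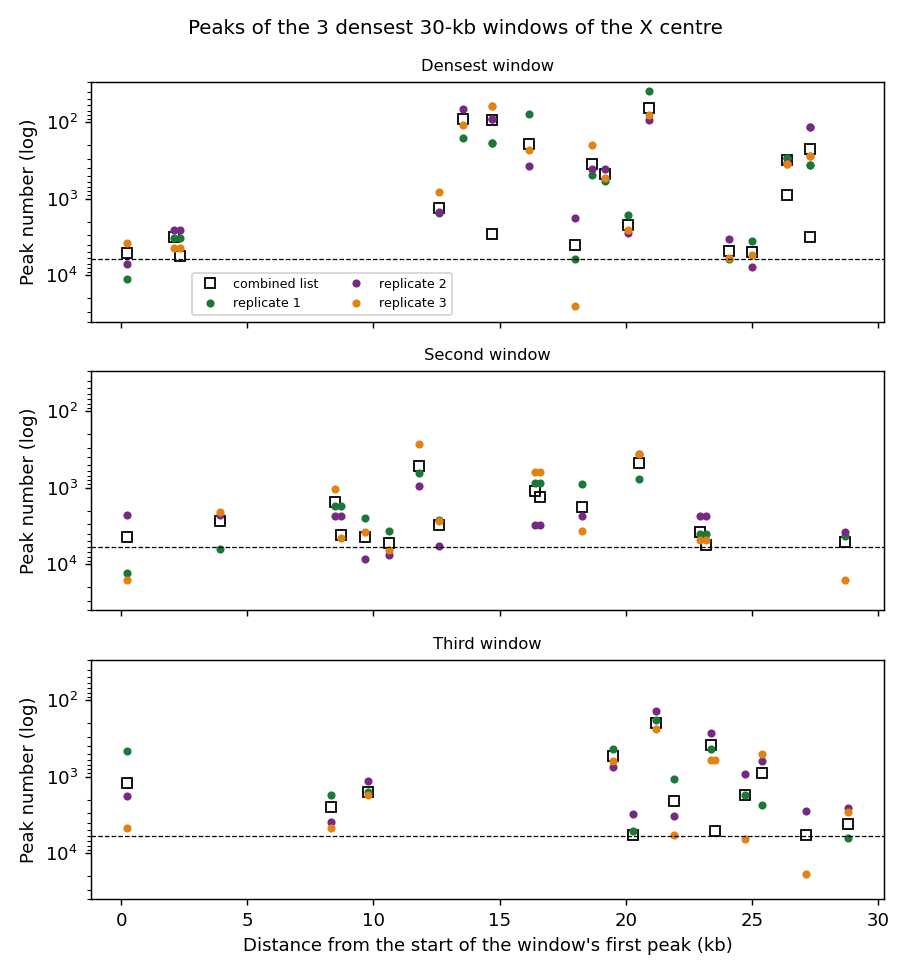
Peak numbers (y axis, log scale, strongest at the top) of the members of the 3 densest 30-kb windows against distance from the start of the first peak (x axis, kb); squares are the combined list, points replicates 1, 2 and 3, and the dashed line the end of the top lists at 6029. In the densest window 8 members lie within the first 500 combined peaks, in the other windows 1 and 2.

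The broadest regions were narrow by comparison with these windows. The widest was X:6253824-6254734, 911 bp, a single interval listed for 3 members, numbers 2109, 2146 and 3820. Replicates 1, 2 and 3 had 2 peaks each there, the best of them numbered 2962, 1593 and 1052. The next 2 belonged to the densest window, at X:6749058-6749847 (790 bp) and X:6737355-6738133 (779 bp). Both were listed for 2 members, and the replicates also had 2 peaks in each. In all, 13 members shared their exact interval with another member.

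The longest stretch of the centre without a member followed directly on a crowded window. It ran from 12189130 to 12362852, 174 kb, between the window ending at 12189129 and the strong site of number 44. The top lists of replicates 1, 2 and 3 had 3, 1 and 0 peaks in it and the full lists 15, 14 and 7. The next ran from 6904927 to 7065851 (161 kb), with 1, 0 and 2 top peaks, and from 11798360 to 11937237 (139 kb), with 1, 0 and 1. The latter ended at the site of number 51. Top peaks that touch the edge of a stretch are counted in it.

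Isolated members could be strong. Another region's midpoint was more than 20 kb away for 23 regions and more than 50 kb away for 4, with a largest distance of 77.9 kb. Number 44, at X:12362853-12363316, had its nearest neighbour 30848.5 bp away. Number 285, at X:12393806-12394060, had its own at 28748.5 bp and stood at 272, 480 and 261 in the replicates.

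At the limits of the stretch the nearest members were not close to the line. On the left the nearest members, X:6201359-6201798 (number 1941) and X:6204768-6205207 (1455), lay 61.6 and 65.0 kb inside, and the nearest peaks outside, X:6109372-6109811 (3161) and X:6100730-6101169 (3563), 30.4 and 39.1 kb away. On the right, X:12454199-12454638 (2363) and X:12449206-12449645 (4947) lay 25.6 and 30.6 kb inside. The nearest outside were X:12500778-12501160 (389) and X:12509359-12509560 (1835), 21.0 and 29.5 kb away.

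Compared with the rest of X, the centre lay between the arms in the density of top peaks. The top lists of replicates 1, 2 and 3 had 66.7, 70.7 and 67.7 peaks per Mb in the centre, 60.9, 60.9 and 61.2 in the left arm and 74.3, 75.8 and 78.7 in the right arm. The ranges of the 3 stretches did not overlap. The centre was 1.12 ± 0.0349 times as dense as the left arm and 0.897 ± 0.0360 times as dense as the right arm (SD, n = 3), in the same direction in 3 of 3 replicates. Against both arms together the ratio was 1.005 ± 0.0340, above 1 in 1 of 3 replicates, and 0.959 in the combined list.

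Each such comparison was tested by an exact two-sided sign-flip permutation over the 3 replicates, which cannot give less than p = 0.25. The left arm and the right arm each reached that value, and both arms together gave p = 1 by the exact permutation test. Over the 45 comparisons of this kind the lowest Benjamini-Hochberg adjusted value was 0.304, so none could pass a usual threshold with 3 samples.

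Among the lower-ranked peaks the order was different. Below the top lists, replicates 1, 2 and 3 had 1200, 1301 and 1154 peaks in the centre, and the density there was 192 ± 11.9 peaks per Mb, against 232 ± 5.79 in the left arm and 229 ± 6.34 in the right arm (SD, n = 3). The centre was thus 0.829 ± 0.0568 and 0.841 ± 0.0518 times as dense as the arms. It was the sparser in 3 of 3 replicates against each arm (exact permutation p = 0.25, the smallest possible). Much of this part of the lists had low values of the authors. Peaks numbered 10269, 10039 and 10000 in replicates 1, 2 and 3 stood at 0.816, 0.881 and 0.832. Those numbered 26774, 24866 and 29362 stood at 0.111, 0.0609 and 0.0587. A low value means a high estimated false discovery rate, so these ratios need not describe weaker binding sites. Neither reads nor inputs were used here.

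The middles of the autosomes, taken as the same relative stretch (34.7 to 70.4% of the span), were denser than the X centre as a whole. Their top lists held 80.3 ± 0.730 peaks per Mb, against 68.3 ± 2.06 in the X centre, a ratio of 0.851 ± 0.0185 that was below 1 in 3 of 3 replicates (SD, n = 3; exact permutation p = 0.25, the smallest possible). The middle of chromosome IV was an exception. It had 65.8, 65.0 and 67.6 top peaks per Mb, each below the X centre of the same replicate, and the ratio was 1.03 ± 0.0462. In the combined list it was 0.982, on the other side of 1. The middles of I, II, III and V had 91.3 ± 1.87, 88.5 ± 2.59, 86.1 ± 1.12 and 74.5 ± 1.002 peaks per Mb.

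**Figure D5:**
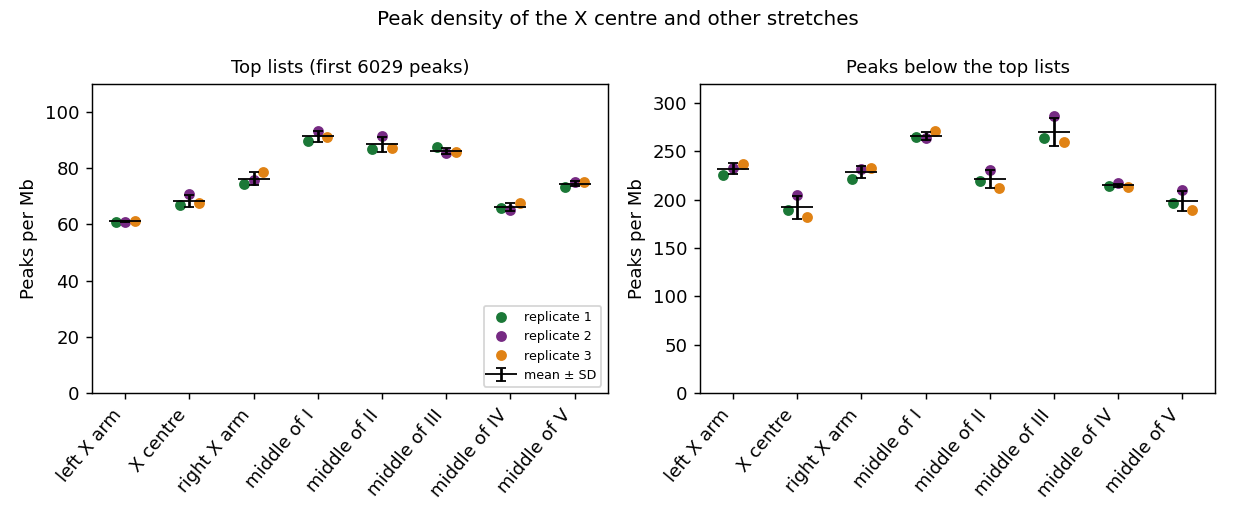
Peaks per Mb (y axis) in the X centre, the X arms and the corresponding middles of the autosomes, for the top lists (left) and for the peaks below them (right); points are replicates 1, 2 and 3, and the black marks their mean ± SD. In the top lists the X centre, at 68.3 ± 2.06, lies between the X arms and close to the middle of IV, while below the top lists, at 192 ± 11.9, it is the lowest mean shown.

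Strong peaks took a slightly larger share in the X centre than in the autosome middles. Of the centre's top peaks, 19.4, 17.6 and 17.9% were within the first 1000 of replicates 1, 2 and 3, against 16.8, 15.3 and 15.9% in the autosome middles. The difference was 2.33 ± 0.297 percentage points, positive in 3 of 3 replicates (SD, n = 3; exact permutation p = 0.25, the smallest possible). With the densest 30-kb window taken out of the X centre and out of the middle of each autosome, an alternative chosen after the data were seen, it was 1.27 ± 0.373 points, positive in 3 of 3 replicates. In the combined list it was 1.96 points with these windows and 0.694 without them. The window of the X centre is the one described above, with 9 of its 19 peaks within the first 1000. Against the X arms the difference was -0.162 ± 0.988 points, within the spread between replicates. Without the densest window of the centre and of each arm it was -1.15 ± 1.10 points.

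Close neighbours were more common in the X centre than in the left arm in every replicate, with no such order against the right arm. Regions with another midpoint within 2000 bp made up 43.7 ± 2.06% of the centre, 36.6 ± 1.80% of the left arm and 43.1 ± 1.48% of the right arm in the top lists (SD, n = 3). The centre exceeded the left arm by 7.09 ± 0.479 points in 3 of 3 replicates (exact permutation p = 0.25, the smallest possible) and the right arm by 0.586 ± 3.34 points in 1 of 3. The left arm also held fewer regions per Mb, 57.3, 57.7 and 56.5 in replicates 1, 2 and 3, against 60.4, 65.1 and 62.9 in the centre. The shares were not adjusted for density, so the difference in neighbours is not separate from it. The share in the autosome middles was 46.0 ± 0.765%, and the centre was the lower in 2 of 3 replicates.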

How the data were processed

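The authors called peaks with SPP and the IDR procedure on WormBase WS220, per the file headers and source fields, and deposited 1 list per ChIP replicate and 1 combined list. The deposited values are −log10 false discovery rate estimates, a unit read from the values. Not given in the sources used here are the aligner, the thresholds, the use of the inputs and the way of combining. The lists hold no read counts, so depth is unknown.

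Peaks were overlapped, joined and counted with Python 3.11.15, pandas 2.3.3 and SciPy 1.17.1, in functions tested on simulated data. Chromosome spans end at the last base reached by any deposited peak (17716907 on X). Intervals are exact Clopper-Pearson and cover counting error only. Named sites follow a written rule: the first 20 members, the sites at the limits, the 3 densest 30-kb windows, 3 longest spaces and 3 widest regions, the 5 most uneven members, and strong replicate peaks outside the combined list. Other sites were named after their values were seen. Members, lists and tests were chosen with earlier results of these data known.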

Additional observations from a re-analysis of the deposited data

How the results depend on the processing

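Of 64 alternatives over 7 results, 27 moved by less than the spread between replicates or the counting interval. Another 29 moved further and 8 changed direction. For the ratios, differences and neighbours, this tally sets values without 1 replicate against the combined list, not against the top-list mean. The density ratio to both X arms, 0.959, was 0.873 with all deposited replicate peaks, 0.834 below the top lists, 0.997 with limits 0.5 Mb inward, and 1.05 with limits 0.5 Mb outward; the mean of the top lists was 1.005, and 0.986 to 1.02 without 1 replicate. Its direction is therefore not settled. The ratio to the autosome middles, 0.826, stayed below 1: 0.862 in the first 3014 peaks, 0.899 with limits outward, 0.871 against the central 50% of autosomes, and 0.851 in the top lists, with 0.840 to 0.857 without 1 replicate. The difference in strong peaks to the X arms, -0.600 points, was 0.474 for the first 500, 0.757 at the ceiling, 1.66 for the first 3014, -1.66 with limits outward, -1.88 without the densest window of each stretch, and -0.162 in the top lists, with -0.461 to 0.409 without 1 replicate. To the autosome middles, 1.96 became 0.494 at the ceiling, 2.49 with limits inward, 0.694 without the densest window of each stretch, and 2.33 in the top lists, with 2.18 to 2.48 without 1 replicate. The share in all top lists, 60.0%, was 38.8% at a reciprocal overlap of 50%, 96.7% in full lists, 95.4% for the first 3014 peaks, and 66.7 to 68.4% without 1 replicate, where fewer lists must agree. Rank agreement, 0.698, was 0.357 with the authors' value, 0.597 at a reciprocal overlap of 50%, and 0.677 to 0.726 without 1 replicate. Regions with a close neighbour, 45.0%, were 17.6% within 1000 bp, 74.7% within 5000 bp, 30.8% for the first 3014 peaks, and 43.7% in the top lists, with 42.6 to 44.6% without 1 replicate. For these ratios, differences and neighbours, values without 1 replicate come from the top lists and are to be read against the top-list mean. The causes were not tested, apart from those set by construction. Alternatives with the mean of top lists, peaks below them, 1 peak per joined region, or without the densest windows were chosen after seeing the data. No paired analysis was possible because no peak list of the inputs, whose replicate numbers match the ChIP ones, was among the files used; this concerns ChIP against input, while stretches were compared within each replicate.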
